A study of Mus musculus with 19 samples.

Results

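The messages of the cytosolic ribosomal proteins were followed in kidneys of 19 male mice, none of which had undergone renal ischemia, with an Affymetrix HT MG-430 PM array for each animal. Among aged-overweight F1 hybrids of FVB and C57BL/6J, averaging 73 weeks and 47 g, 5 mice were fasted for 3 days and 5 were fed ad libitum. Among young-lean C57BL/6J mice, aged 10 to 14 weeks with a weight of 22 to 25 g, 4 were fasted for 3 days and 5 were fed ad libitum. Age, strain and body weight change together between the sets of mice and cannot be told apart. A gene was taken as a member when its symbol starts with Rpl or Rps followed by a digit, or is Rpsa, Rplp0, Rplp1 or Rplp2, leaving out the S6 kinases (Rps6k) and pseudogenes. This gave 72 of the 17097 genes that a probe set names alone, and each gene was read at its brightest such probe set. They were 41 proteins of the 60S subunit, 24 proteins of the 40S subunit, 6 paralogs (Rpl3l, Rpl7l1, Rpl22l1, Rpl36al, Rpl39l and Rps27l) and Rps19bp1, which binds Rps19 and is no ribosomal protein. RefSeq holds 89 protein-coding genes with such symbols. Of those not taken, Rpl5 and Rps3 were named only by probe sets that also name another gene, and the rest were not analysed here.

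Cytosolic ribosomes translate all messages of the nuclear genome. The small subunit carries the decoding site, and the large subunit the peptidyl transferase site and the exit tunnel. Their proteins are for the most part made in roughly equal amounts, and assembly on ribosomal RNA begins in the nucleolus. Most of their messages start with a C and a run of pyrimidines, the 5′ terminal oligopyrimidine (TOP) tract, through which mTORC1 controls how well they are translated when nutrients change, with little need for a change in message level. The arrays measured message levels only, and neither translation nor protein was analysed here.

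Start site sequence was read for the 58 members with an entry in RefSeq's promoter table (GRCm38.p6), taking the first listed start of each gene. The windows below run from 10 bases before the start to 20 bases after it, 5′ to 3′ on the strand of the gene, with the longest run of C and T in capitals. They are shown because these genes carry the results that follow. Rps6, Rps9, Rpl12 and Rpl14 hold a C followed by 5 or more pyrimidines, and Rpl4, Rps16, Rpl24 and Rpl7l1 do not.
Rps6 (chr4:86857348-86857377, minus strand): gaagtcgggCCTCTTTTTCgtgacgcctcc
Rps9 (chr7:3704031-3704060, plus strand): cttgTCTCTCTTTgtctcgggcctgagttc
Rpl12 (chr2:32961702-32961731, plus strand): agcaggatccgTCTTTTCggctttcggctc
Rpl14 (chr9:120571507-120571536, plus strand): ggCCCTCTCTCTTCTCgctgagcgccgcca
Rpl4 (chr9:64173377-64173406, plus strand): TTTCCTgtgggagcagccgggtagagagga
Rps16 (chr7:28350679-28350708, plus strand): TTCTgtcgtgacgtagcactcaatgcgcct
Rpl24 (chr16:55966265-55966294, plus strand): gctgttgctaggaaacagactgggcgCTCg
Rpl7l1 (chr17:46782637-46782666, minus strand): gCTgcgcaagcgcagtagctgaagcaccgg

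A C followed by 5 or more pyrimidines stood in this window in 29 of 58 members (50.0%), against 22.0% of the 27025 genes in the table. The longest pyrimidine run had a median of 6 bases in members and 4 bases in all genes. In the 300 bases from 250 before to 50 after the start, read on both strands, CCGGAAG, a sequence bound by ETS factors, was in 41.4% of members and 9.12% of all genes. ATGGCGG, the core bound by YY1, was in 17.2% of members and 4.19% of all genes, GGGCGG (Sp1) in 60.3% and 35.9%, and TATAAA (the TATA box) in 10.3% and 14.2%. No motif contains another, and a match is a match of letters, not a measured site. Among the 40S and 60S members with a window, chromosome 18 left out, 26 held a C followed by 5 or more pyrimidines. Their median fasted minus fed log2 difference was 0.11 in aged and 0.10 in young kidneys. The 25 members without such a match had medians of 0.13 and 0.14. A match anywhere in the window does not show that the message begins with it, so these groups do not separate messages with and without a TOP tract.

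The deposited values are log2 levels that the authors made with the RMA algorithm, in which 1 unit is a doubling of the signal. Array medians lay between 3.44 and 3.49 in aged mice and between 4.15 and 4.21 in young mice, so fasted mice were set against ad libitum fed mice only within an age. Arrays of a group correlated at 0.988 to 0.997. Markers of kidney segments (10 of 13 listed genes) had a median log2 level of 8.75 to 8.92 in aged fasted and 9.73 to 10.13 in aged ad libitum fed mice. In young mice it was 9.58 to 9.75 in fasted and 9.64 to 10.10 in ad libitum fed animals. The aged gap came from Slc5a2 (lower by 1.09 in fasted mice) and Calb1 (lower by 0.99), which stand in the middle of that list, while the median difference of its genes was -0.13 and 4 of 10 were positive. Liver markers had a median of 9.80 in aged fasted mouse33 and of 4.71 to 5.44 in the other 4 aged fasted mice, against 4.24 to 6.40 in aged ad libitum fed mice. The array of aged ad libitum fed mouse40 stood apart in the difference between the 3′ and 5′ control probe sets of beta-actin, 2.09 log2 units against 1.07 to 1.29 in the other mice of its group and 1.16 to 1.60 in aged fasted mice.

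In aged kidneys, fasting went with slightly higher levels of most ribosomal protein messages. Of 72 members, 63 had a positive log2 difference, the median was 0.11 (1.08-fold) and the quartiles were 0.06 and 0.18, while the median of all genes was -0.01. By limma, with p values adjusted by Benjamini-Hochberg over 45141 probe sets, 6 members rose at an adjusted p of at most 0.05, against 4.32% of all genes, and 1 fell, against 4.84% of all genes. The other 65 did not pass. The risers were Rpl7, Rpl12, Rpl3, Rpl4, Rps9 and Rps3a1, with rises of 0.23 to 0.32 (1.17-fold to 1.25-fold), and no member reached the 1.5-fold minimum used by the study in either age, which 2.67% of all genes did in aged and 6.49% in young kidneys. In bulk kidney, a change in the share of a cell type and a change in message per cell cannot be told apart.

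In young kidneys, 60 of 72 members had a positive difference, with a median of 0.13 (1.09-fold) and quartiles of 0.05 and 0.17, against a median of -0.01 for all genes. Here 14 members rose, against 10.7% of all genes, and 2 fell, against 12.5% of all genes. More genes passed in young than in aged kidneys throughout the array, and 14 of 72 is read against that background. The risers were Rpl3, Rpl11, Rpl12, Rpl17, Rpl23, Rpl24, Rpl32, Rpl36, Rpl37, Rps3a1, Rps6, Rps14, Rps16 and Rps23, with rises of 0.17 to 0.29 (1.13-fold to 1.22-fold). All fasted mice lay above all ad libitum fed mice for 29 members (9.9% of all genes) and below them for 1 (11.4% of all genes). In aged kidneys this held for 8 members (4.66% of all genes) and for 1 (5.52% of all genes).

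**Figure D1:**
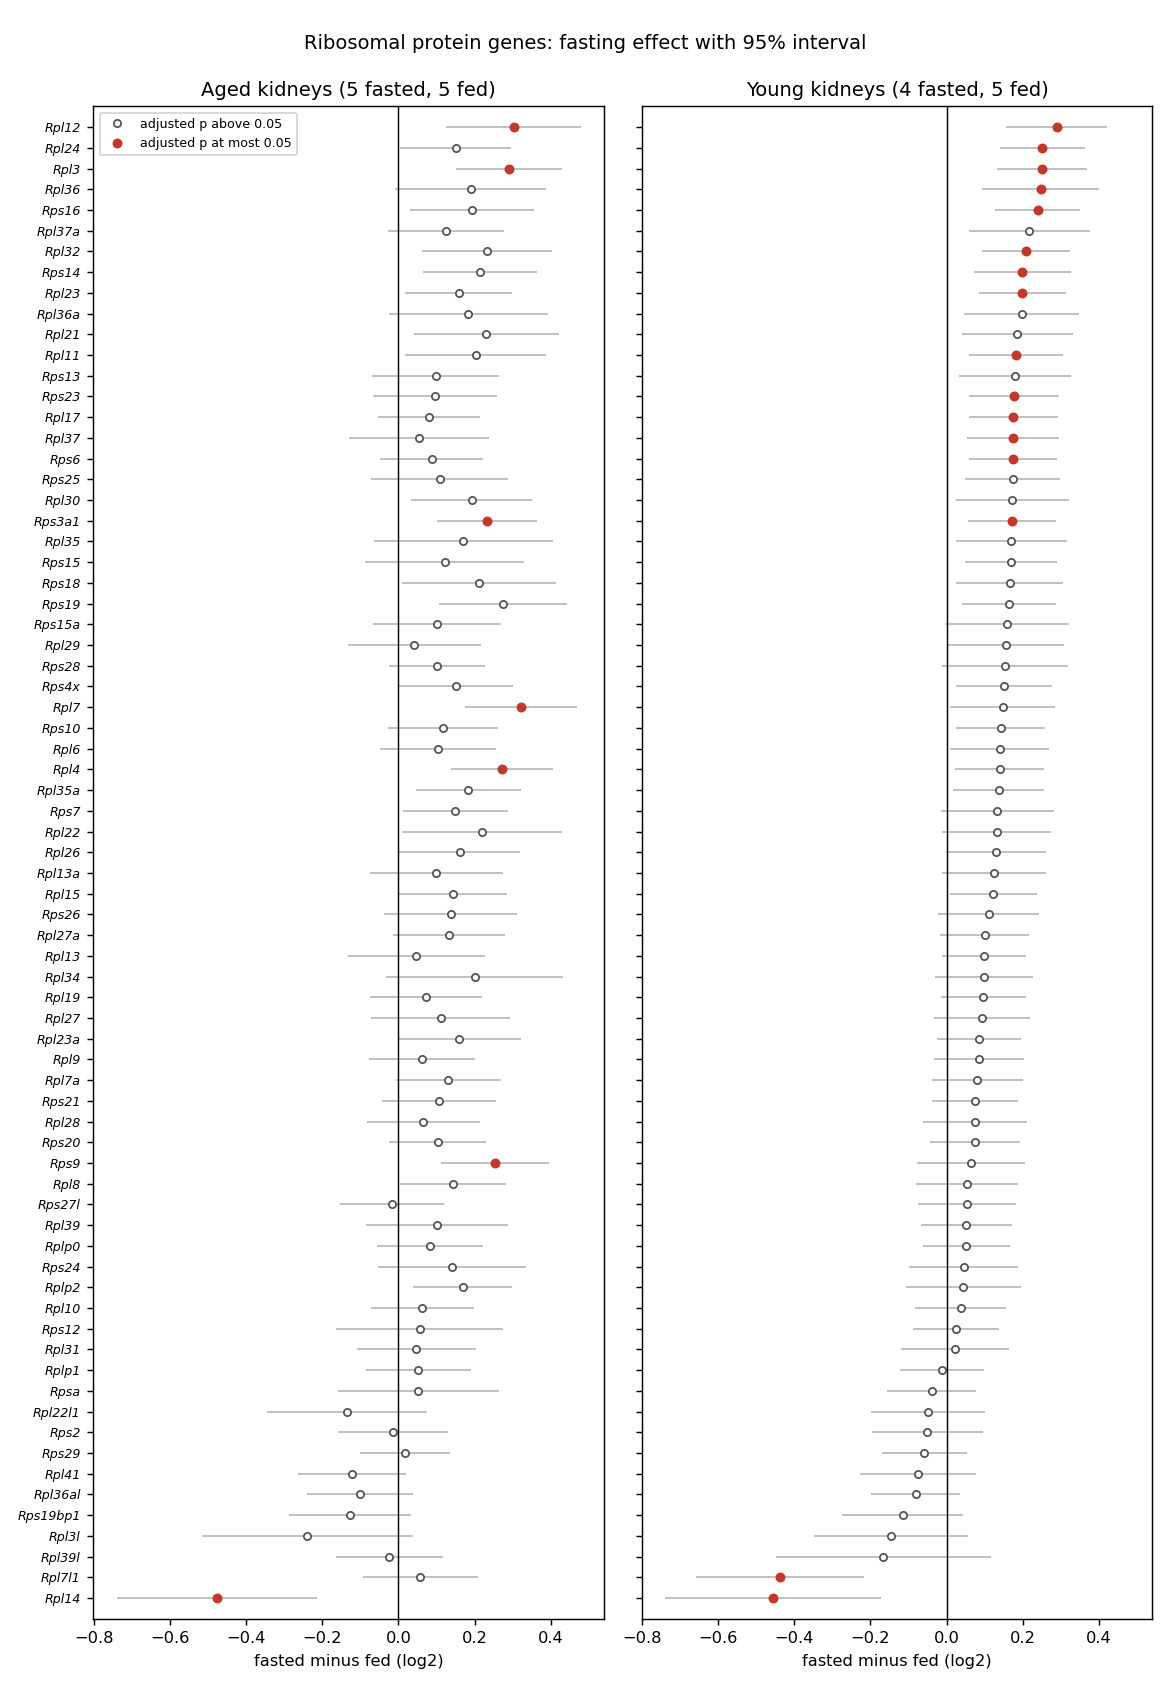
Fasted minus ad libitum fed log2 difference (x axis) of each of the 72 members (rows, ordered by the young value) in aged (left) and young (right) kidneys, with limma's 95% interval as a line and filled points for an adjusted p of at most 0.05. Most points lie between 0 and 0.3 in both ages, 6 and 14 filled points lie right of 0, and Rpl14 is at the bottom in both.

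The same members tended to the same side in both ages. A total of 59 of 72 were positive in both, against 31% of all genes, and 8 were negative in both, against 34.8% of all genes. All 59 were proteins of the 40S or 60S subunit, 65 in number. Among the 59, Rps15a was read at a dim probe set, with a mean log2 level of 3.58. Rpl3, Rpl12 and Rps3a1 rose in both ages, 3 of 72 members against 2.79% of all genes. Across the 65 subunit proteins the aged and young differences correlated at 0.80, a description over genes that were measured on the same arrays and are not independent. This value includes Rpl14, which lies far below the others in both ages (-0.48 and -0.46) at a dim probe set. The correlation without Rpl14 was not computed.

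Rpl3, a protein at the peptidyl transferase centre of the large subunit, separated the diets in both ages (values follow the mouse numbers, low to high, here and below). It was at 12.19, 12.06, 12.04, 12.02 and 11.99 in aged fasted mice, against 11.78, 11.70, 11.75, 11.88 and 11.74 in aged ad libitum fed mice. It was at 12.09, 12.12, 12.13 and 12.21 in young fasted mice, against 11.82, 11.90, 11.88, 11.90 and 11.93 in young ad libitum fed mice. Every fasted mouse was above every ad libitum fed mouse of its age, and the differences were 0.29 ± 0.06 (SE, adjusted p = 0.018, limma) in aged and 0.25 ± 0.05 (adjusted p = 0.00656) in young kidneys.

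Rpl12, which helps to anchor the stalk that recruits translation factors, had the largest rise among members in young kidneys. It was at 11.02, 10.76, 10.89, 10.78 and 10.77 in aged fasted mice, against 10.55, 10.48, 10.46, 10.77 and 10.46 in aged ad libitum fed mice. It was at 11.00, 10.94, 10.93 and 10.96 in young fasted mice, against 10.59, 10.57, 10.69, 10.72 and 10.78 in young ad libitum fed mice. The young groups did not overlap, and in aged mice only the ad libitum fed mouse40 reached into the fasted range. The differences were 0.30 ± 0.08 (adjusted p = 0.0462, limma) in aged and 0.29 ± 0.06 (adjusted p = 0.00569) in young kidneys.

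Rps3a1, a 40S protein, was at 12.57, 12.45, 12.44, 12.45 and 12.43 in aged fasted mice, against 12.26, 12.15, 12.23, 12.31 and 12.24 in aged ad libitum fed mice. In young fasted mice it was at 12.73, 12.65, 12.76 and 12.71, against 12.54, 12.53, 12.54, 12.61 and 12.49 in young ad libitum fed mice. Neither age showed overlap. The rise was 0.23 ± 0.06 (adjusted p = 0.0397, limma) in aged and 0.17 ± 0.05 (adjusted p = 0.0419) in young kidneys.

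At the probe sets used, Rpl7, Rpl4 and Rps9 passed in aged kidneys only, without a difference between the ages that passed. Rpl7, an RNA-binding protein of the 60S subunit, was at 11.97, 11.86, 11.86, 11.95 and 11.90 in aged fasted mice, against 11.44, 11.63, 11.53, 11.73 and 11.61 in aged ad libitum fed mice. Its rise of 0.32 ± 0.07 (adjusted p = 0.0135, limma) was the largest among members in aged kidneys, and its young value was 0.15 ± 0.06 (adjusted p = 0.138). The aged minus young difference of Rpl7 was 0.17, with a 95% interval of -0.01 to 0.36 (adjusted p = 0.411). Another bright probe set of Rpl7 (mean log2 level 11.54) passed in young kidneys only. It was at 0.22 (adjusted p = 0.0902, limma) in aged and 0.17 (adjusted p = 0.0451) in young kidneys.

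Rpl4, which lines the exit tunnel, was at 12.55, 12.44, 12.55, 12.45 and 12.41 in aged fasted mice, against 12.13, 12.23, 12.24, 12.27 and 12.16 in aged ad libitum fed mice. The groups did not overlap, with a rise of 0.27 ± 0.06 (adjusted p = 0.0196, limma). Rps9, a protein near the decoding site, was at 11.60, 11.53, 11.59, 11.44 and 11.41 in aged fasted mice, against 11.27, 11.36, 11.23, 11.18 and 11.27 in aged ad libitum fed mice. These groups were apart as well, and the rise was 0.25 ± 0.07 (adjusted p = 0.038). In young kidneys the value of Rpl4 was 0.14 ± 0.05 (adjusted p = 0.101) and that of Rps9 was 0.06 ± 0.06 (adjusted p = 0.581). The difference between the ages was 0.13 for Rpl4 (interval -0.02 to 0.29, adjusted p = 0.48) and 0.19 for Rps9 (interval 0.0038 to 0.37, which excludes 0, adjusted p = 0.356).

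Among members that passed in young kidneys only, Rpl24 and Rps16 had the smallest adjusted p. Rpl24, a protein at the bridge between the subunits, was at 12.20, 12.25, 12.25 and 12.27 in young fasted mice, against 11.96, 12.02, 12.00, 11.94 and 12.03 in young ad libitum fed mice. Rps16, whose tail reaches the tRNA in the small subunit, was at 12.29, 12.32, 12.38 and 12.31 in young fasted mice, against 12.06, 12.08, 12.08, 12.06 and 12.15 in young ad libitum fed mice. Both genes were apart in all young mice, with rises of 0.25 ± 0.05 for Rpl24 (adjusted p = 0.005, limma) and 0.24 ± 0.05 for Rps16 (adjusted p = 0.0067). Their aged values were 0.15 (adjusted p = 0.253) for Rpl24 and 0.19 (adjusted p = 0.172) for Rps16.

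Rps6, the target of the S6 kinases downstream of mTORC1, was at 12.71, 12.71, 12.67 and 12.79 in young fasted mice, against 12.48, 12.56, 12.58, 12.58 and 12.54 in young ad libitum fed mice. Its message rose by 0.17 ± 0.05 (adjusted p = 0.0392, limma) in young kidneys with no overlap, and was 0.09 ± 0.06 (adjusted p = 0.524) in aged kidneys. Phosphorylation of the protein was not analysed here. Rpl11, which with Rpl5 can bind Mdm2 when assembly of the large subunit is disturbed, rose by 0.18 ± 0.06 (adjusted p = 0.0421) in young kidneys and was at 0.20 ± 0.09 (adjusted p = 0.214) in aged kidneys. The other young risers were Rpl36 (0.25), Rpl32 (0.21), Rpl23 (0.20), Rps14 (0.20), Rps23 (0.18), Rpl17 (0.18) and Rpl37 (0.17), of which Rps23 sits at the decoding centre. Rpl17 depended on the probe set: a second, dimmer probe set of the gene fell by 0.19 in young kidneys (adjusted p = 0.0362).

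Several calls did not hold with 1 array fewer, often whichever array it was. Rpl3 and Rpl7 in aged kidneys and Rpl3, Rpl12, Rpl24, Rpl32 and Rps16 in young kidneys passed whichever array was left out. Rpl12 and Rps3a1 lost their call in aged kidneys in 9 of the 10 such fits, Rps9 in 8 and Rpl4 in 1. In young kidneys Rps6, Rps23 and Rpl37 lost it in 8 of 9 fits, Rps3a1, Rpl11, Rpl17 and Rps14 in 7, Rpl36 in 5 and Rpl23 in 1. Rpl3 was thus the 1 member that passed in both ages with any array left out, and in the age where each of these genes passed, its sign did not change in any of these fits.

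The stalk proteins and Rpsa did not pass, and apart from Rplp2 in aged kidneys their values were near 0. Rplp0, the stalk base, was at 0.08 (95% interval -0.06 to 0.22) in aged and 0.05 (-0.06 to 0.17) in young kidneys. Rplp1 was at 0.05 (-0.08 to 0.19) and -0.01 (-0.12 to 0.10), and Rplp2 at 0.17 (0.04 to 0.30, adjusted p = 0.135, limma) and 0.04 (-0.11 to 0.20). For Rplp2 all aged fasted mice lay above all aged ad libitum fed mice, while the young groups overlapped. Rpsa, a 40S protein first described as a laminin receptor precursor, was at 0.05 (-0.16 to 0.26) and -0.04 (-0.16 to 0.08). None of these 4 passed in either age, and for Rplp1 in young mice the levels were 12.57 to 12.59 in fasted and 12.56 to 12.66 in ad libitum fed mice. The subunit proteins with a negative value in both ages were Rpl14, Rpl41 and Rps2, of which only Rpl14 passed.

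**Figure D2:**
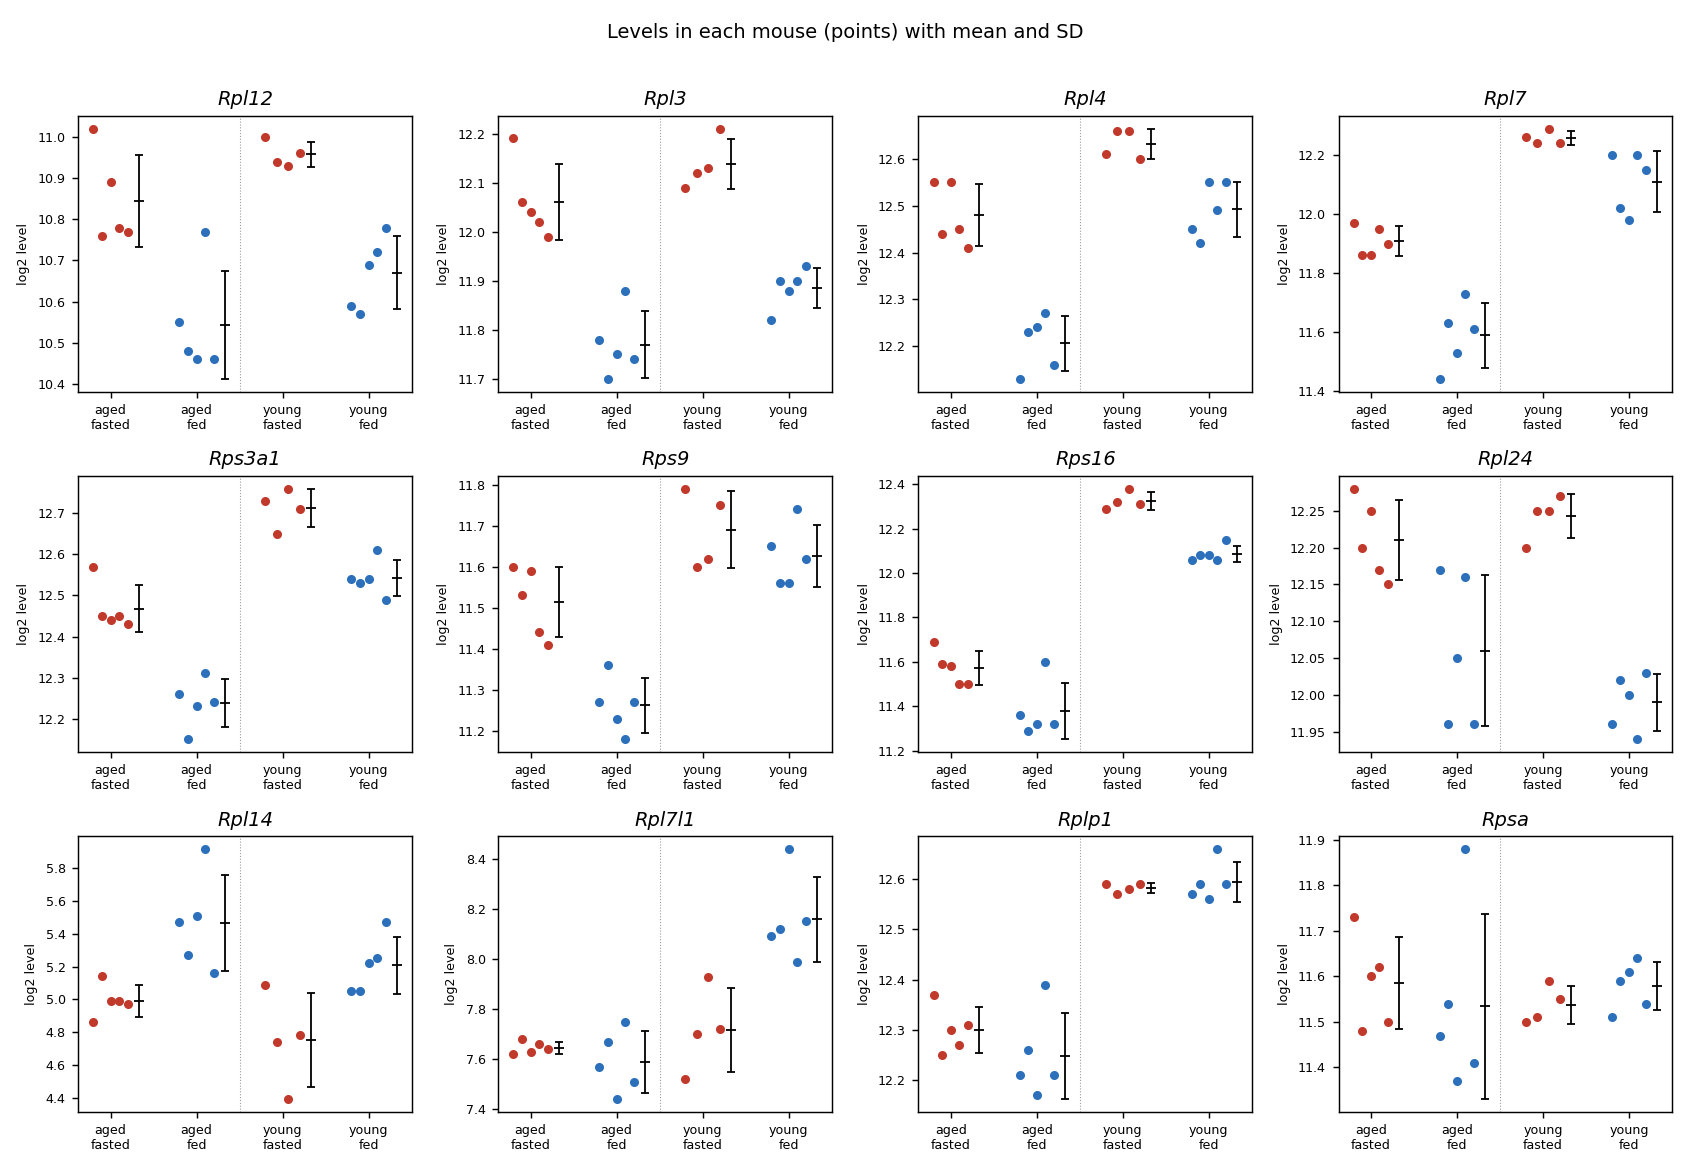
Log2 level (y axis, a separate scale for each gene that does not start at 0) of 12 members in every mouse, fasted in red and ad libitum fed in blue, with the group mean and SD in black. Rpl3 and Rps3a1 do not overlap between the diets in either age, Rpl7l1, at the probe set shown, is lower in young fasted than in young ad libitum fed mice, and mouse40 is the highest aged ad libitum fed mouse for 10 of the 12 genes, all but Rps9 and Rpl24.

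The subunits had similar medians. The median difference of the 41 members of the 60S subunit was 0.14 in aged and 0.13 in young kidneys, with 39 and 38 members positive, and that of the 24 members of the 40S subunit was 0.11 and 0.15, with 23 and 21 positive. At the probe sets used, the 6 paralogs lay on the other side, with medians of -0.06 in aged and -0.11 in young kidneys and 1 positive value in each age, though 5 of the 6 passed in neither age. Rpl22l1, the paralog of Rpl22, was at -0.14 and -0.05, Rpl36al at -0.10 and -0.08, and Rps27l, a paralog of Rps27 that p53 induces, at -0.02 and 0.05. Other bright probe sets of Rps27l were at 0.0095 and 0.023 in aged and at 0.077 and 0.063 in young kidneys, and did not pass. Rpl3l, which is typical of heart and skeletal muscle, was at -0.24 and -0.15, and Rpl39l, typical of testis, at -0.02 and -0.17, and both had low levels in all mice (2.49 to 3.96). Rps19bp1 was at -0.13 in aged and -0.12 in young kidneys and did not pass.

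Rpl7l1, the relative of yeast Rlp7, which takes part in assembly of the large subunit in yeast, was the 1 member whose difference itself passed between the ages, against 2.44% of all genes. At its brightest probe set it was at 7.62, 7.68, 7.63, 7.66 and 7.64 in aged fasted mice, against 7.57, 7.67, 7.44, 7.75 and 7.51 in aged ad libitum fed mice. It was at 7.52, 7.70, 7.93 and 7.72 in young fasted mice, against 8.09, 8.12, 8.44, 7.99 and 8.15 in young ad libitum fed mice. The young groups did not overlap and the aged groups did. The values were 0.06 ± 0.07 (adjusted p = 0.745, limma) in aged and -0.44 ± 0.10 (adjusted p = 0.01) in young kidneys, and the aged minus young difference was 0.49, with a 95% interval of 0.24 to 0.75 (adjusted p = 0.0398). This call was lost when any 1 of 14 of the 19 arrays was left out, and the other probe sets of Rpl7l1 did not show it. One of nearly the same mean level (7.77 against 7.78) was at -0.03 in aged and -0.09 in young kidneys (adjusted p = 0.378, limma), a difference between the ages of 0.06 (interval -0.15 to 0.27). A dimmer one was at -0.15 and 0.08, a difference of -0.23 (interval -0.47 to 0.01, adjusted p = 0.402). For the other 71 members the 95% interval of the aged minus young difference lay within 0.5 log2 units either side of 0. That bound is wider than the largest rise of a member that passed (0.32), so it does not show that the ages responded alike. The share of all genes within it was not computed.

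Rpl14, a 60S protein, was the member that fell in both ages, but at a dim probe set. It was at 4.86, 5.14, 4.99, 4.99 and 4.97 in aged fasted mice, against 5.47, 5.27, 5.51, 5.92 and 5.16 in aged ad libitum fed mice. It was at 5.09, 4.74, 4.39 and 4.78 in young fasted mice, against 5.05, 5.05, 5.22, 5.25 and 5.47 in young ad libitum fed mice. The aged groups did not overlap, and in young mice only fasted mouse339 reached into the ad libitum fed range. It fell by 0.48 ± 0.12 in aged (adjusted p = 0.0355, limma) and by 0.46 ± 0.13 in young kidneys (adjusted p = 0.0278). The 4 bright probe sets that name Rpl14 together with its pseudogene Rpl14-ps1 had values of 0.15 to 0.22 in aged and 0.13 to 0.17 in young kidneys and did not pass, so the probe sets of this gene disagree. The call at the dim probe set was lost without any 1 of 6 of the 10 aged arrays and 6 of the 9 young arrays.

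Other probe sets of the members were read beside the brightest ones. There were 63 of them, naming 34 members alone, and 2 rose in aged kidneys (3.16% of all probe sets rose and 3.32% fell), while 10 rose and 3 fell in young kidneys (10.1% and 9.54%). The 33 with a mean log2 level above 10 had medians of 0.14 in aged and 0.13 in young kidneys and the same sign as the brightest probe set of their gene in 31 and 33 cases. The 30 at or below that level had medians of -0.01 and 0.08 and the same sign in 15 and 20 cases. The dim ones that passed are named here for that reason. In aged kidneys second probe sets of Rpl22 (0.60) and Rps24 (0.57) rose. In young kidneys those of Rpl22 (0.71), Rps20 (0.43), Rpl23 (0.28) and Rpl37 (0.23) rose, while those of Rpl31, Rpl15 and Rpl17 fell by 0.61, by 0.48 and by 0.19. Probe sets whose mark (x) says that they can bind similar transcripts were 20 of the 72 in use, with medians of 0.11 in aged and 0.12 in young kidneys, against 0.12 and 0.13 for the other 52.

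Over the whole set, the level of a mouse was summarised as the median deviation of the 72 members from their means over the mice of that age. It was 0.086, 0.028, 0.071 and 0.085 in young fasted mice, against -0.066, -0.060, -0.063, -0.004 and -0.043 in young ad libitum fed mice, without overlap. In aged fasted mice it was 0.158, 0.060, 0.079, 0.031 and -0.013, against -0.085, -0.089, -0.132, 0.111 and -0.085 in aged ad libitum fed mice. The aged groups overlapped through mouse40, at 0.111, which was the highest of the aged ad libitum fed mice for 63 of 72 members. The same share over all genes was not computed. The median deviation of mouse40 was also the highest of its group for mitochondrial ribosomal protein genes (0.192) and for all genes (0.039). Without mouse40, 13 members rose in aged kidneys (4.7% of all genes), of which Rpl3, Rpl4, Rpl7, Rpl12 and Rps3a1 were shared with the full set, and the fasted mice were all above the ad libitum fed mice for 36 members (6.78% of all genes).

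**Figure D3:**
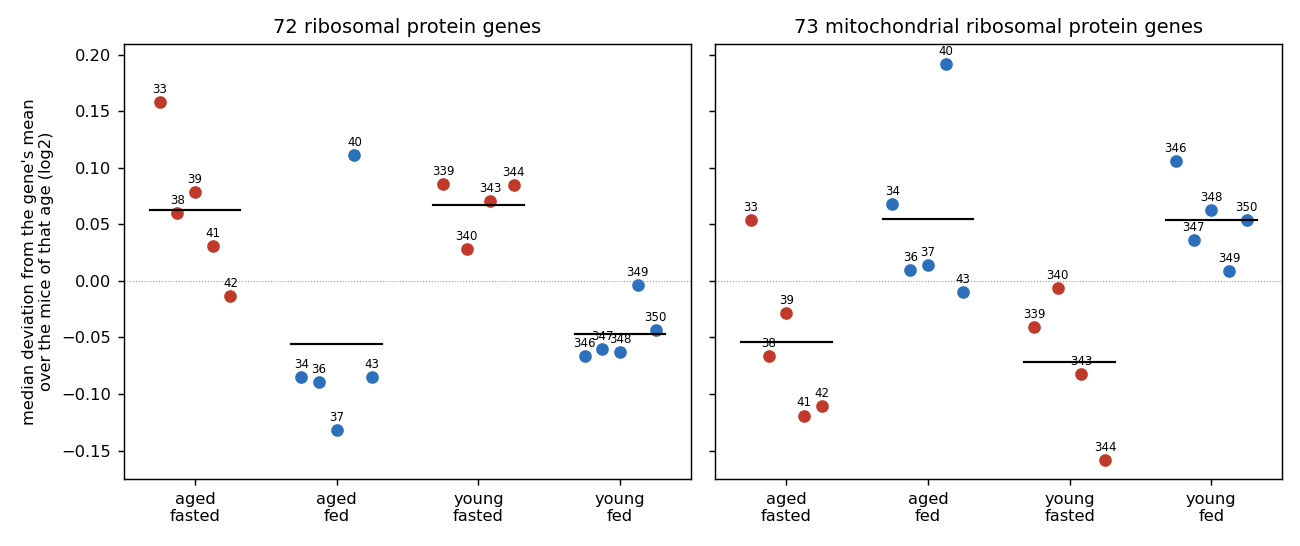
Median deviation of the 72 members (left) and of 73 mitochondrial ribosomal protein genes (right) from each gene's mean over the mice of that age, in log2 units (y axis), for every mouse (points with the mouse number) with the group mean as a line. Fasted mice are higher on the left and lower on the right on average, and mouse40 stands above the other aged ad libitum fed mice in both panels.

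The difference between transcript ends moved with the members in part. The beta-actin 3′ minus 5′ difference was 2.27 to 2.64 in young fasted mice, against 1.89 to 2.37 in young ad libitum fed mice, and mouse40 was high in both measures. In young kidneys the beta-actin probe sets themselves were lower in fasted mice, by 0.52 at the 3′ end and by 0.81 at the 5′ end. With the mean 3′ minus 5′ difference of beta-actin and Gapdh as a covariate, which was chosen after seeing the data, 5 members rose in young kidneys in place of 14, while the share of all genes that rose was 7.97% in place of 10.7%. In aged kidneys 8 members rose with it in place of 6, against 5.38% of all genes. Its part in the result was not tested further. The 3 control probe sets for 18S ribosomal RNA had values of 0.23 to 0.28 in aged and -0.16 to -0.12 in young kidneys and did not pass in either age.

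**Figure D4:**
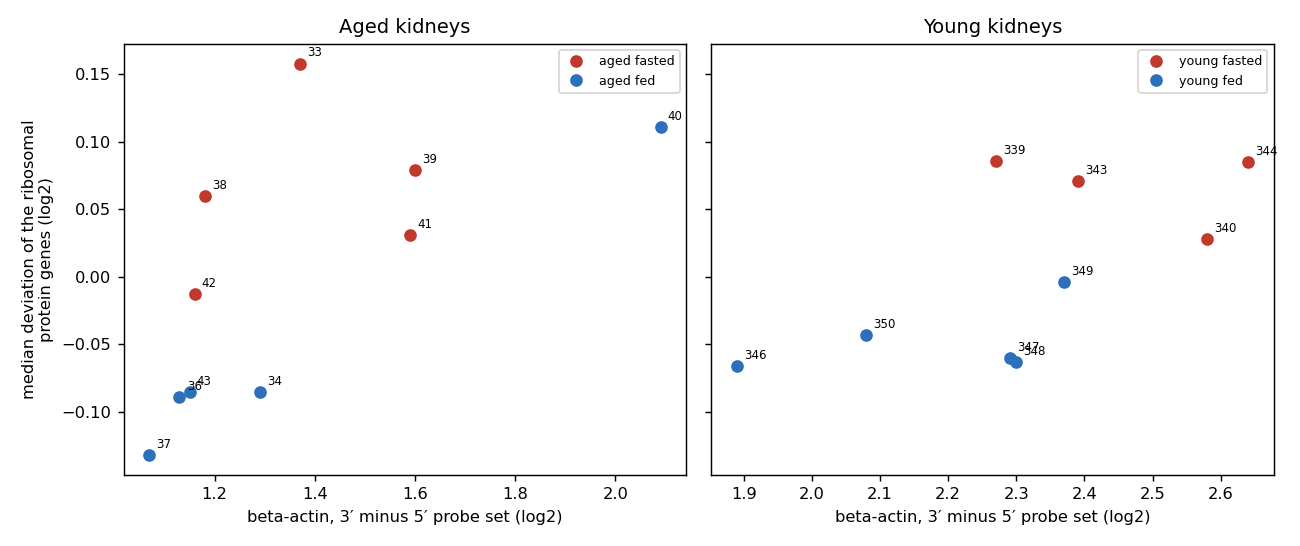
Median deviation of the 72 members (y axis, log2) against the difference between the 3′ and 5′ control probe sets of beta-actin (x axis, log2) for each aged (left) and young (right) mouse, labelled by number. In aged mice, mouse40 is at 2.09 on the x axis, and all fasted mice lie above the other ad libitum fed mice on the y axis.

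Markers of other cells moved as well. Of 12 macrophage genes, 7 fell in young kidneys, with a median log2 level of 5.58 to 5.88 in fasted and 6.18 to 6.54 in ad libitum fed mice, and 1 fell in aged kidneys, with 5.00 to 5.92 in fasted and 5.46 to 6.21 in ad libitum fed mice. Of 5 red cell genes 3 fell in young kidneys. Of 7 brown adipocyte genes 2 rose in young kidneys, Cidea by 2.84 and Cox8b by 1.77, with a median difference of 0.88 over the list. The median log2 level of this list was 7.30, 5.93, 6.65 and 3.82 in young fasted mice, against 3.63 to 4.64 in young ad libitum fed mice. It was 3.53 to 6.59 in aged fasted and 4.00 to 7.10 in aged ad libitum fed mice. Of 14 liver genes 6 rose and 1 fell in young and 1 rose in aged kidneys, and of 10 kidney segment genes 4 fell in young and 3 in aged kidneys. Their part in the values of the members was not tested. Among all genes, 4.32% rose and 4.84% fell in aged kidneys, and 10.7% rose and 12.5% fell in young kidneys. The counts of these lists and of the lists below stand against those shares. Without aged fasted mouse33, whose liver markers were high, 3 members rose in aged kidneys (4.06% of all genes), the same number as without any 1 of mouse34, mouse37, mouse38, mouse41 or mouse43.

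Mitochondrial ribosomal proteins, which build the separate ribosome inside mitochondria, lay on the other side of 0. Of 73 such genes 1 rose and 13 fell in aged kidneys, with a median of -0.11, and 4 rose and 26 fell in young kidneys, with a median of -0.15. Among all genes 4.32% rose and 4.84% fell in aged kidneys, and 10.7% rose and 12.5% fell in young kidneys. Mrpl44 was lower in fasted mice by 0.36 in aged (adjusted p = 0.0041, limma) and by 0.30 in young kidneys (adjusted p = 0.00927), and Mrpl34 fell by 0.33 (adjusted p = 0.00985) and by 0.53 (adjusted p = 0.000474). Only 19 and 18 of the 73 were positive, against 63 and 60 of the 72 cytosolic members. The difference between the lists was described by these counts and medians and was not tested.

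**Figure D5:**
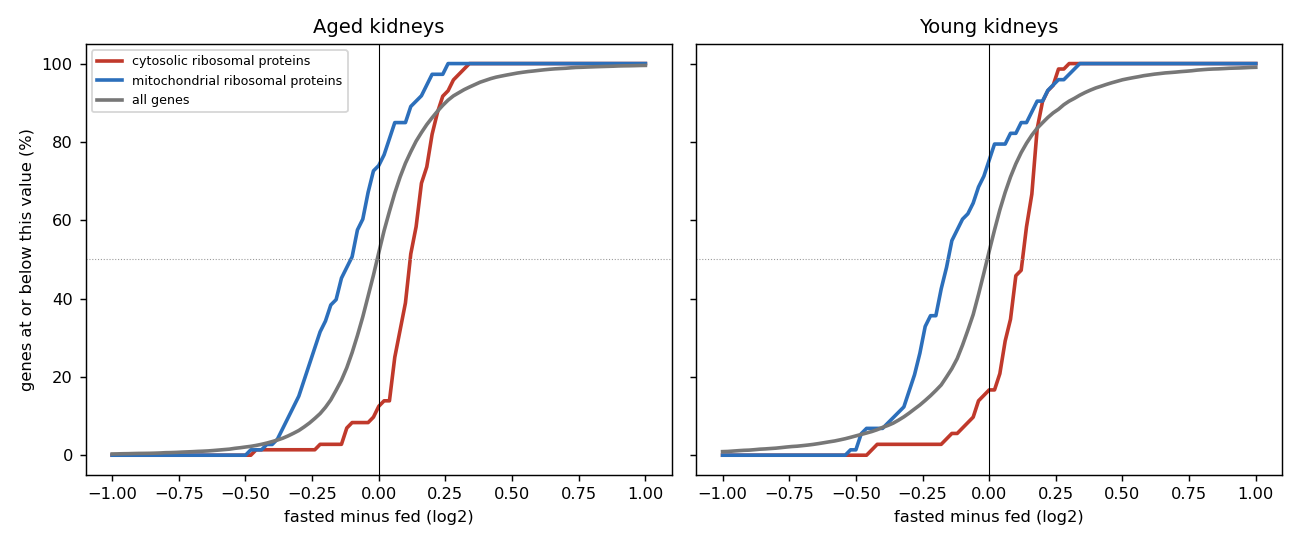
Share of genes (y axis, %) at or below each fasted minus ad libitum fed log2 difference (x axis) in aged (left) and young (right) kidneys, for the 72 cytosolic members (red), 73 mitochondrial ribosomal protein genes (blue) and all 17097 genes (grey). The red curve crosses 50% at 0.11 and 0.13 and is steeper than the grey one, and the blue curve crosses 50% at -0.11 and -0.15.

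Other messages known to carry a TOP tract include those of translation factors. The list read here also holds Btf3, Fau, Hnrnpa1, Naca and Nap1l1, which are not translation factors. Of 18 measured genes (23 listed), 4 rose in aged kidneys, with a median of 0.20, and 6 rose and 1 fell in young kidneys, with a median of 0.16. Eif4b, which aids the helicase that unwinds messages for the scanning ribosome, was at 10.63, 10.60, 10.62, 10.49 and 10.46 in aged fasted mice, against 9.92, 9.82, 9.95, 10.05 and 9.92 in aged ad libitum fed mice. It was at 10.89, 10.99, 11.01 and 11.00 in young fasted mice, against 10.26, 10.40, 10.23, 10.24 and 10.33 in young ad libitum fed mice. All fasted mice were above all ad libitum fed mice, with rises of 0.63 (adjusted p = 0.000135, limma) and 0.68 (adjusted p = 1.85e-05). Eif3m rose by 0.54 and 0.49 and Eif3e by 0.40 and 0.32, both subunits of eIF3, while Nap1l1, a histone chaperone, fell by 0.54 in young kidneys (adjusted p = 0.000268). Fau, whose product is cut into a ubiquitin-like protein and the 40S protein eS30, was at 0.24 (adjusted p = 0.0801) in aged and rose by 0.26 (adjusted p = 0.0203) in young kidneys.

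Genes of ribosome assembly and rRNA modification went both ways, with 6 rising and 4 falling of 45 in aged kidneys (median 0.09) and 8 and 9 in young kidneys (median 0.02). Npm1, a nucleolar chaperone of assembly, rose by 0.61 (adjusted p = 5e-04, limma) and 0.47 (adjusted p = 0.000154), and Nhp2, a protein of the pseudouridylation complex, fell by 0.61 (adjusted p = 0.0087) and by 0.55 (adjusted p = 0.000518). Dkc1, the pseudouridine synthase of the same complex, was at 0.24 in aged and fell by 0.41 in young kidneys, and the aged minus young difference of 0.65 passed (adjusted p = 0.00466). Of 12 genes of RNA polymerase I, which makes ribosomal RNA, Polr1e fell by 0.47 and by 0.51, and no other passed in aged kidneys, while Taf1a rose in young kidneys by 0.29 (adjusted p = 0.0104).

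Among 23 genes of mTORC1 and translation control, 1 rose and 1 fell in aged kidneys and 7 rose and 2 fell in young kidneys. Mtor, the kinase itself, was at 9.37, 9.72, 9.38, 9.39 and 9.59 in aged fasted mice, against 10.37, 10.19, 10.11, 10.02 and 10.08 in aged ad libitum fed mice. In young fasted mice Mtor was at 9.17, 9.42, 9.41 and 9.27, against 9.67, 10.10, 9.77, 9.96 and 9.90 in young ad libitum fed mice. It fell by 0.66 (adjusted p = 0.000938, limma) and by 0.56 (adjusted p = 0.00121), with no overlap in either age, and Deptor, an inhibitor of the kinase, rose by 0.34 and 0.44. Eif4ebp1, the repressor of cap-dependent initiation that mTORC1 inactivates, rose by 1.09 in young kidneys (adjusted p = 6.91e-06) and was at 0.34 (adjusted p = 0.0914) in aged kidneys, a difference of -0.76 between the ages (adjusted p = 0.00735). Of 8 measured Myc family genes (9 listed), 1 rose in aged kidneys (median 0.07) and 2 rose in young kidneys (median 0.01). Myc, which drives ribosomal protein and RNA polymerase I genes in growing cells, rose by 0.97 in aged (adjusted p = 0.00358, limma) and 0.75 in young kidneys (adjusted p = 0.00174). The other riser in young kidneys was Mxi1 (0.35, adjusted p = 0.00351). The part of Myc in the values of the members was not tested.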

How the data were processed

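The authors corrected and normalized the arrays with RMA and deposited log2 values for 45141 probe sets. Versions are not given in the sources used here. Per the study's methods, RNA of low integrity was left out. Array medians differ between the ages, so the ages seem to have been normalized apart. The columns were matched to mice by their names. Differences were computed from the deposited log2 values with limma 3.58.1 in R 4.3.3, fasted against ad libitum fed separately in each age, adjusting p values over the whole table by Benjamini-Hochberg, at a threshold of 0.05 without a fold minimum, as the study's methods state. The aged minus young difference came from 1 model with a mean for each of the 4 groups. Of the probe sets, 28898 carried 1 gene symbol, 551 several, and 15692 were not listed in the annotation used here. Each array is a separate mouse. Per the study's methods aged males were housed singly, and those methods refer elsewhere for the young mice. Intervals are limma's 95% intervals. The members and gene lists were chosen with earlier results of these data known. Named members were the 10 largest rises and falls per age among members that passed, the smallest adjusted p for the difference between the ages, the paralogs and a fixed set (Rplp0, Rplp1, Rplp2, Rpsa, Rps6, Rpl3, Rpl11), and up to 4 genes of each list. The scripts were tested on simulated data. Alternatives were an ordinary test, 1 fit for all arrays, a variance trend with robust fitting, quantile normalization, centring, a filter on low probe sets, other probe set choices, a fold minimum and leaving out each array.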

Additional observations from a re-analysis of the deposited data

Results flagged for a closer look

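In 11 of 124 groups of values tested for an outlying mouse, 1 mouse lay far from the others. Chance gives about 1 in 20 when the groups are independent. These groups were measured on the same arrays and are not independent, so the share flagged is not read against that rate. Most of the flagged values came from mouse40 and mouse349. Aged ad libitum fed mouse40 was at 10.77 for Rpl12 (10.46 to 10.55 in the other 4), 11.49 for Rpl29 (11.12 to 11.22), 11.37 for Rpl36al (11.18 to 11.23) and 11.60 for Rps16 (11.29 to 11.36), and its median deviation over the members was 0.111 (-0.132 to -0.085 in the others). Young ad libitum fed mouse349 was at 11.36 for Rpl22l1 (11.07 to 11.11 in the other 4), 12.66 for Rpl23 (12.54 to 12.57), 3.47 for Rpl39l (2.72 to 2.91) and 12.69 for Rps14 (12.54 to 12.58). Young ad libitum fed mouse350 was at 12.15 for Rps16 (12.06 to 12.08), and aged fasted mouse33 at 12.57 for Rps3a1 (12.43 to 12.45).

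The fasting effect of Rpl7l1 differed between the ages, by 0.49 (aged minus young, adjusted p = 0.0398 with limma), at its brightest probe set. At its other probe sets the difference was 0.06 and -0.23 and did not pass.

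A probe set outside the comparisons, because it names Rpl5 together with Dipk1a, rose by 0.24 in aged (adjusted p = 0.0242, limma) and by 0.22 in young kidneys (adjusted p = 0.0117). The other 2 probe sets with these names were at -0.19 and -0.14 in aged and at -0.0034 and -0.098 in young kidneys and did not pass.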

How the results depend on the processing

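Counts of members depended on the setting. The 6 rises in aged kidneys became 11 with all arrays in 1 fit, 11 with a variance trend and robust fitting and 0 with a 1.5-fold minimum, and 2 to 13 with 1 array left out (13 without ad libitum fed mouse40, 2 without fasted mouse39, 3 without fasted mouse33, mouse38 or mouse41 or ad libitum fed mouse34, mouse37 or mouse43). The 14 rises in young kidneys became 23 with an ordinary test, 29 with the trend, 7 with arrays centred on their median, 0 with the fold minimum and 5 with the 3′ minus 5′ covariate, and 6 to 18 with 1 array left out (18 without ad libitum fed mouse349, 6 without ad libitum fed mouse348 or fasted mouse343, and 7 to 9 without any other young mouse). The 1 fall in aged kidneys became 0 with the ordinary test and with the fold minimum, and 0 to 1 with 1 array left out. The 2 falls in young kidneys became 1 with the ordinary test, 4 with probe sets without an s or x mark (63 members), 0 with the fold minimum and 1 with the covariate, and 1 to 2 with 1 array left out. The 1 difference between the ages became 0 with the ordinary test, with the mean of a gene's probe sets and with the fold minimum, and 0 to 1 with 1 array left out. The cause of these changes was not tested. The share of all genes called was computed only for the full fit, the fold minimum, the covariate and the fits without mouse40 or mouse33. Elsewhere a changed count of members has no share of all genes beside it and is not read as a result about them.

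The median difference stayed positive under all of these settings. In young kidneys it was 0.13, 0.10 after centring and 0.12 to 0.13 with 1 array left out, and in aged kidneys 0.10 to 0.16 with 1 array left out. In young kidneys Rpl17 turned to -0.026 with the mean of its probe sets and to -0.19 with probe sets without a mark. Among 915 values of named members under the other alternatives, 62 lost and 12 gained their call, and among 1140 with 1 array left out, 111 lost and 4 gained it. In 44 of these 2055 values the sign changed without a call in either fit. The study's methods describe matching of mice in pairs by weight and sex before diets were assigned. They do not say whether this held for the array mice. The sample labels give no pairs, so no paired analysis was possible.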
